A study of Mus musculus with 4 samples.

Results

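Mitochondrial ribosomal protein genes are described here across 4 arrays of mouse dentate gyrus RNA. Members were taken by symbol, as every gene on the array whose symbol is Mrpl or Mrps followed by a number, so no measured value entered the choice beyond the presence of a value. The table held 69 features (spots) of 62 such genes. Of these, 59 genes had a value on at least 1 array, out of 9849 named genes of the series with a value, and 52 had a feature with values on all 4 arrays, out of 6661. Mrpl19, Mrpl21 and Mrpl47 were listed at exact 0 on every array, which was read as no value.

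Mitochondria carry ribosomes of their own, which descend from those of bacteria and make the few proteins encoded in mitochondrial DNA, all of them membrane subunits of the respiratory chain and ATP synthase. The ribosomal RNAs come from mitochondrial DNA, whereas every protein of this ribosome is encoded in the nucleus, made in the cytosol and imported. Mrpl genes code for the large subunit, which forms the peptide bond, and Mrps genes mostly for the small subunit, which reads the mRNA. The naming has exceptions: the products of Mrps30 and Mrps18a sit in the large subunit, and the Mrps36 product is now known as a component of the 2-oxoglutarate dehydrogenase complex.

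Each two-colour array compared young male C57BL/6J mice given saline (5 µL per g body weight, Cy3) with such mice given MK-801 (300 µg per g as the labels print it, Cy5), at 1, 2, 4 or 6 h. MK-801, also called dizocilpine, blocks the NMDA type of glutamate receptor. The labels count the hours from a last shock of the MK-801 mice yet call both RNAs those of controls, so the handling of the injected mice is not settled, and they give no number of animals per RNA. There was 1 array per time, with no dye swap, so a single ratio has no replicate error.

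Values are log ratios, read as log2 and centred on the median of each array. Where 4 ratios of a gene are given, they are in the order 1, 2, 4 and 6 h. Neither the log base nor the direction is stated: a positive ratio may mean more RNA in the MK-801 channel or in the saline channel, and signs below are those of the deposited values. A dye bias of a gene, where constant, cannot be told apart from a treatment effect in a ratio of constant sign. In whole tissue, fewer cells of a type and less RNA per cell cannot be told apart either. Only ratios are used here, so the level of no gene is known, and the dentate gyrus label could not be checked by levels of its markers. Of 9 granule cell markers listed, 3 had a value and 2 had values on all 4 arrays.

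The ratios of the 52 genes with 4 values were small. In 24 of them (46.2%) every ratio stayed within 0.2 of 0, against 23.9% of all 6661 genes, and 4 of them (7.69%) passed 0.5 in either direction on any array, against 16.8% of all. Their medians on the 4 arrays were -0.05, 0.03, -0.0033 and 0.05, beside -0.03, -0.0059, -0.0015 and 0.0030 for all genes. Interquartile ranges of the members were 0.26, 0.21, 0.15 and 0.17 at the 4 times, where those of all genes were 0.36, 0.27, 0.28 and 0.25. At each time the members thus lay closer together than genes in general, and their medians lay near 0 on both sides of it. These are descriptions, without a test.

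**Figure D1:**
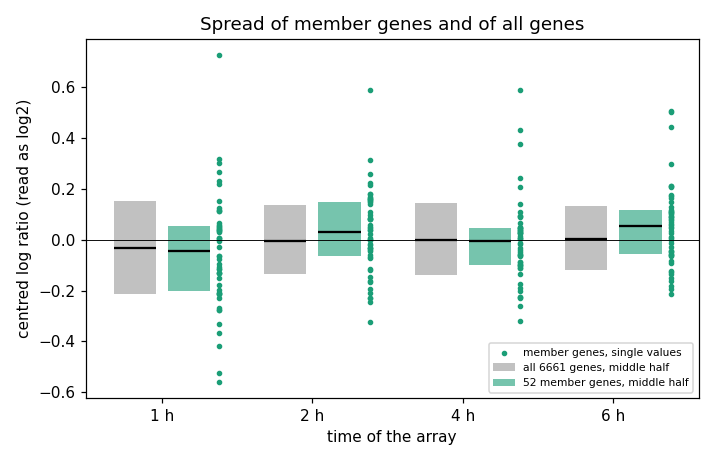
Centred log ratios (read as log2, vertical axis) at each time, for all 6661 genes with 4 values (grey) and the 52 mitochondrial ribosomal protein genes (green). Boxes span the quartiles, black lines are medians, and points are single member genes. The green boxes are shorter than the grey boxes at all 4 times, and both medians lie near 0.

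Past 0.5, counted in each direction, there were 1 positive and 2 negative members at 1 h, where 3.59% and 5.36% of all genes lay. At 2 h there were 1 and 0 (background 1.1% and 2.42%), at 4 h 1 and 0 (2.57% and 3.39%), and at 6 h 2 and 0 (1.92% and 2.6%). As a share of the 52, 1 gene is 1.92% and 2 genes are 3.85%. Mrps24 accounted for the positive member at 1 and 4 h, Mrpl9 for that at 2 h, and both for those at 6 h. On the negative side they were Mrps15 and Mrps34, at 1 h only. The share of members was above the background on the positive side at 2 and 6 h and below it in every other count, and each rests on 2 genes or fewer.

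Across the 4 arrays, 11 of the 52 genes were positive throughout (21.2%, background 11.1%) and 8 negative throughout (15.4%, background 13.8%). Positive throughout were Mrps24, Mrpl9, Mrpl27, Mrps25, Mrps21, Mrps6, Mrpl28, Mrps33, Mrpl46, Mrpl24 and Mrpl18. Mrpl24 counts here by its feature with 4 values, and a second feature was negative at 2, 4 and 6 h. Negative throughout were Mrps15, Mrps16, Mrpl52, Mrpl53, Mrps30, Mrpl11, Mrps11 and Mrpl43. The other members changed sign at least once, and those of constant sign fell on both sides of 0.

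**Figure D2:**
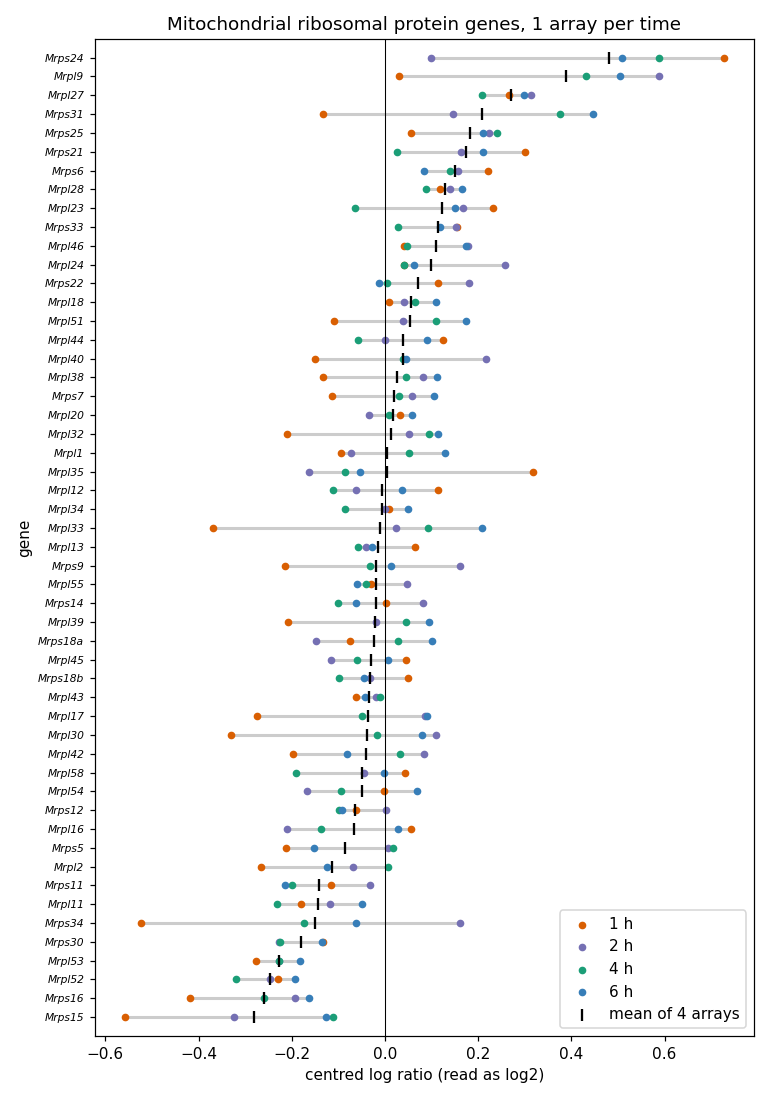
Centred log ratio (read as log2, horizontal axis) of each of the 52 mitochondrial ribosomal protein genes with 4 values, ordered by mean. Coloured points are the 1, 2, 4 and 6 h arrays, grey bars their range, and black ticks the mean. Mrps24 and Mrpl9 stand at the top with means of 0.48 and 0.39, and Mrps15 and Mrps16 at the bottom with -0.28 and -0.26.

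3 tests in limma (moderated, two-sided, Benjamini-Hochberg adjustment over all genes, calls at 0.05) asked whether a ratio held across times or moved with time. The mean of the 4 arrays against 0 called 0 of 52 members and 0% of all 6661 genes, with 11 members (21.2%; 6 positive, 5 negative) and 14.7% of all genes at an unadjusted p under 0.05. For the slope on log2 hours the calls were 0 of 52 and 0% as well, with 3 members (5.77%, all positive) and 15.9% of all genes at an unadjusted p under 0.05. The mean of the 2, 4 and 6 h arrays, taken apart because the 1 h array ran differently over all genes, called 4 of 54 members (7.41%), below the 11.8% of all 7040 genes tested. These 4 were Mrpl9, Mrpl27, Mrps31 and Mrpl52. The 1 h array was set apart on the strength of these same data, so adjusted p-values of this test may be too small. In all 3 tests arrays of different times stand in for replicates. The error is thus the spread between times for a mean, and the spread about the fitted line for the slope.

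Mrpl9 codes for a large subunit protein with a bacterial counterpart. Its ratios were 0.03, 0.59, 0.43 and 0.50, so the 1 h array lay near 0 and the later 3 each reached at least 1.35-fold on the log2 reading. The mean of the later 3 was 0.51 ± 0.06 (SE; adjusted p = 0.0122, limma). This was the smallest adjusted p of any member; the call was lost without the 6 h array (adjusted p = 0.071) and with exact 0 read as a value (0.0846). Over 4 arrays the mean was 0.39 ± 0.25 (SD; adjusted p = 0.253, limma).

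Mrpl27, whose bacterial counterpart lies by the peptidyl transferase centre, gave 0.27, 0.31, 0.21 and 0.30. It was even across arrays, from 1.16- to 1.24-fold, with a mean of 0.27 ± 0.05 (SD over 4 arrays; adjusted p = 0.237, limma). Over the later 3 arrays it passed (adjusted p = 0.0401, limma), and leaving out any 1 of them ended the call (0.0638 without 2 h, 0.112 without 4 h, 0.197 without 6 h), as did exact 0 read as a value (0.0974). Mrpl28, a neighbour by number with a bacterial counterpart, had 0.12, 0.14, 0.09 and 0.16, also positive on every array and even, and did not pass (adjusted p = 0.369 over 4 arrays and 0.158 over the later 3, limma).

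Mrpl52, a large subunit protein without a bacterial counterpart, ran in the opposite direction, at -0.23, -0.25, -0.32 and -0.19. The later 3 arrays averaged -0.25 ± 0.06 (SE; adjusted p = 0.0462, limma), and the call ended without 2 h (0.069), without 4 h (0.183) or without 6 h (0.175), with single features (0.0507) and with exact 0 read as a value (0.119). Mrpl53, likewise specific to mitochondria, had nearly even ratios, at -0.28, -0.23, -0.23 and -0.18 (mean -0.23 ± 0.04, SD). It fell short of the threshold (adjusted p = 0.0573 over the later 3 arrays, limma). Both genes lay below 0 on every array by more than any ratio of Mrpl43, the smallest of the genes negative throughout (-0.01 to -0.06).

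Promoter stretches of the 3 called Mrpl genes are shown because their ratios held the same sign on all 4 arrays. They run from position -150 to position 30 around the annotated start, on the plus strand of GRCm38.p6 (RefSeq), with capitals for matches to CCGGAAG (the core of ETS family sites, to which the mitochondrial gene regulator GABP binds) or GCGCATGCG (NRF1 type), searched on both strands.
Mrpl9, chr3:94443186-94443365: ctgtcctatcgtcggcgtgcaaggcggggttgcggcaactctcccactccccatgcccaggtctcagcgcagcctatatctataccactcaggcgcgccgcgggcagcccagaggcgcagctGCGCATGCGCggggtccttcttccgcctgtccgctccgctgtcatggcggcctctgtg
Mrpl27, chr11:94653641-94653820: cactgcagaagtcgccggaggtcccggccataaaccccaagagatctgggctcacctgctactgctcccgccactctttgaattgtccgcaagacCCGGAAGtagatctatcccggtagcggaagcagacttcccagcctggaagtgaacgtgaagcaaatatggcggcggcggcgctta
Mrpl52, chr14:54426759-54426938: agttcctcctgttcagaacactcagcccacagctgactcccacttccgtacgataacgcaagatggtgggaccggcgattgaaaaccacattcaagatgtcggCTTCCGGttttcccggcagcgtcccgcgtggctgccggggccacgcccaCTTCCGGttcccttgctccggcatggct
Mrpl9 thus holds overlapping NRF1 type matches on both strands, starting at -28 and -27, Mrpl27 an ETS type match at -55, and Mrpl52 ETS type matches on the opposite strand at -47 and 3. Genes of opposite ratio sign, Mrpl27 and Mrpl52, share the ETS type letters.

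RefSeq promoter windows (250 bases before to 50 from the start) were found for 56 of the 62 genes, 59 windows in all. CCGGAAG was in 20 of the 59 (33.9%), against 11.6% of 21263 windows of protein-coding genes and 8.86% of all 32851. GCGCATGCG was in 6 (10.2%), against 2.35% and 1.75%, and AAGATGGCG, a YY1 type motif, in 5 (8.47%), against 1.83% and 1.4%. A match is a run of letters, not a shown binding site. Among measured members, the median of the 4-array means was -0.02 for 17 genes with the ETS type match and 0.0033 for 31 without, with 4 positive and 4 negative throughout in the first set and 7 and 4 in the second. Sign on the arrays did not follow this motif in any visible way, and no test was made.

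Other large subunit genes with a bacterial counterpart are taken next. Mrpl11 and Mrpl12 code for proteins of the stalk region that receives translation factors: Mrpl11 had -0.18, -0.12, -0.23 and -0.05, while Mrpl12 had 0.11, -0.06, -0.11 and 0.04. The former was negative on every array and the latter changed sign. Mrpl23 and Mrpl24, whose bacterial counterparts surround the exit of the peptide tunnel, were mostly positive, with 0.23, 0.17, -0.06 and 0.15 for Mrpl23 and 0.04, 0.26, 0.04 and 0.06 for Mrpl24. A second Mrpl24 feature, valued on the later 3 arrays alone, read -0.12, -0.18 and -0.19, so the sign of Mrpl24 depends on the feature. Mrpl18, whose product lies in the central protuberance, was positive throughout but small, from 0.01 to 0.11.

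Mrpl32 and Mrpl33 had negative ratios at 1 h and positive ones later. Mrpl32, whose precursor must be cut by the mAAA protease before it joins the ribosome, had -0.21, 0.05, 0.09 and 0.11. Mrpl33 had -0.37, 0.02, 0.09 and 0.21, a slope of 0.21 ± 0.07 per doubling of time (SE; unadjusted p = 0.0199, adjusted p = 0.278, limma). Mrpl35 did the reverse, with 0.32 at 1 h and -0.16, -0.09 and -0.05 later, and the sign of its slope (-0.13 ± 0.08, SE) depended on the 1 h array, turning to 0.07 without it. Such a turn between 1 h and all later arrays occurred in 11 of 52 members (21.2%; 7 from negative to positive, 4 from positive to negative) and in 32.2% of all genes.

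Of the mitochondrion-specific large subunit genes, 15 had 4 values. Their medians were -0.11, -0.02, -0.04 and 0.0064, while the 20 genes with a bacterial counterpart had 0.02, 0.01, 0.0075 and 0.08. Only Mrpl46 was positive throughout and 4 genes were negative throughout in the first class, against 5 and 1 in the second. The classes overlapped widely. They were drawn up from textbook knowledge after the values had been seen, so the difference is a description. Mrpl45, which ties the ribosome to the inner membrane, had 0.05, -0.11, -0.06 and 0.01. Mrpl58, a member of the release factor family that frees stalled peptides, averaged 0.04, -0.04, -0.19 and -0.0024 over its features. Mrps30, a large subunit gene despite its symbol, was negative throughout, at -0.13, -0.23, -0.23 and -0.14 (adjusted p = 0.0713 over the later 3 arrays, limma).

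Among genes with 4 values, the highest and the lowest single ratio belonged to small subunit genes, Mrps24 and Mrps15. Mrps24, the counterpart of a bacterial protein at the mRNA entry, gave 0.73, 0.10, 0.59 and 0.51, or 1.65-fold at its highest. It had the largest mean of all members (0.48 ± 0.27, SD; adjusted p = 0.237, limma), and the 2 h array stood far below the other 3. Its adjusted p over the later 3 arrays was 0.0587 (limma). In its promoter window the YY1 type letters start at position 37, counted from the annotated start.

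Mrps31, specific to mitochondria, had -0.13, 0.15, 0.38 and 0.45, the steepest slope among members (0.23 ± 0.06 per doubling of time, SE; unadjusted p = 0.0095, adjusted p = 0.256, limma). Its mean over the later 3 arrays passed narrowly (0.32 ± 0.08, SE; adjusted p = 0.0478, limma). Without the 4 h array the adjusted p was 0.161 and without the 6 h array 0.219. It also rose above 0.05 with arrays scaled to equal spread (0.0502), quantile normalisation (0.0554), single features (0.0528), robust variances (0.0502) and exact 0 read as a value (0.219). Mrps25, another mitochondrion-specific gene, had 0.06, 0.22, 0.24 and 0.21 and ended just short over the later 3 arrays (adjusted p = 0.0504, limma).

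Mrps15 and Mrps16 code for small subunit proteins with bacterial counterparts that bind the ribosomal RNA. Mrps15 gave -0.56, -0.325, -0.11 and -0.13, so its ratio was largest at 1 h (1.47-fold) and nearer to 0 later, with a mean of -0.28 ± 0.21 (SD; adjusted p = 0.281, limma). Mrps16 gave -0.42, -0.19, -0.26 and -0.16 (mean -0.26 ± 0.11, SD; adjusted p = 0.253, limma). Both were lowest at 1 h and negative on every array. Mrps34, mitochondrion-specific, was also low at 1 h (-0.52) but read 0.16, -0.17 and -0.06 later, so its sign was not kept.

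The remaining small subunit genes were closer to 0. Mrps21 (0.30, 0.16, 0.02 and 0.21), Mrps6 (0.22, 0.16, 0.14 and 0.08) and Mrps33 (0.15, 0.15, 0.03 and 0.12) were positive throughout. Mrps22 was positive at 1 and 2 h (0.11 and 0.18) and 0.0043 and -0.01 at 4 and 6 h. Mrps12, whose counterpart lies at the decoding site, ranged from -0.10 to 0.0016. The bacterial protein S18 has several mouse paralogs. Of these Mrps18a, whose product sits in the large subunit, read -0.07, -0.15, 0.03 and 0.10, and Mrps18b 0.05, -0.03, -0.10 and -0.05. Their signs differed on the 1, 4 and 6 h arrays, and all these ratios were small.

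**Figure D3:**
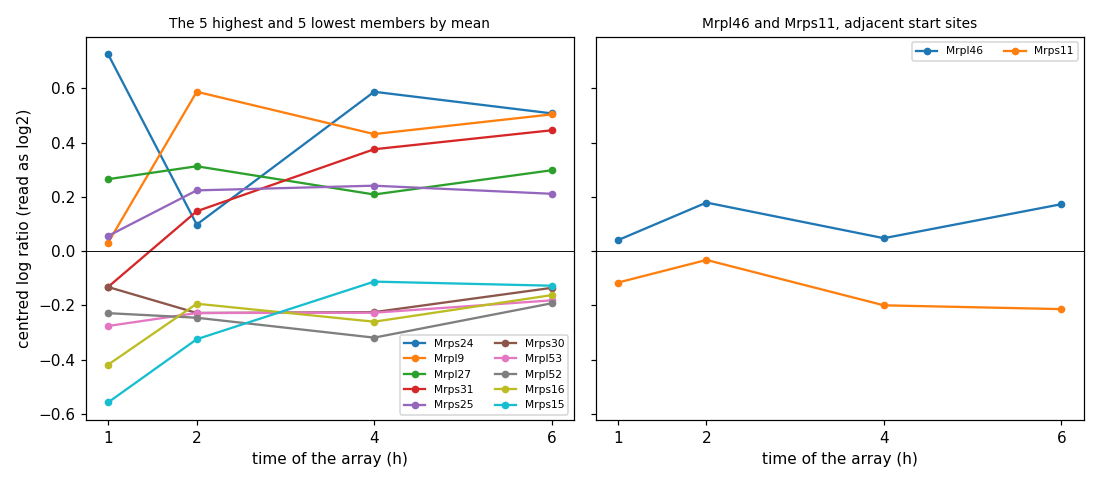
Centred log ratio (read as log2, vertical axis) against the time of the array (h) for the 5 members with the highest and the 5 with the lowest means (left) and for the head-to-head pair Mrpl46 and Mrps11 (right). Each point is 1 array and lines join arrays of 1 gene. Mrps31 goes from -0.13 at 1 h to 0.45 at 6 h, and Mrpl46 lies above Mrps11 on all 4 arrays.

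Mrpl46 and Mrps11 sit head to head on chromosome 7, with 41 bases between their annotated starts. The stretch is shown because these neighbours had opposite signs on every array: it spans chr7:78783060-78783160 of GRCm38.p6, read on the strand of Mrps11, with the bases between the starts in capitals and 30 bases of each gene around them.
Mrps11 and Mrpl46: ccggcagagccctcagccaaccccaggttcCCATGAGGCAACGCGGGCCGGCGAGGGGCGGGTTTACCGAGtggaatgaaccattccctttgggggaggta
Mrpl46 read 0.04, 0.18, 0.05 and 0.17. Mrps11 read -0.12, -0.03, -0.20 and -0.21. Neither passed a test (adjusted p = 0.173 and 0.161 over the later 3 arrays, limma). A protein-coding neighbour starting within 1000 bases in the opposite direction was annotated for 18 of 56 members (32.1%), against 8.48% of 17492 protein-coding genes. In the 6 such pairs with 4 values on both sides, the neighbours had the same sign in 9 of 24 comparisons. These are 6 pairs on the same 4 arrays, and no share over other gene pairs was computed. Mrpl18 and Tcp1, a cytosolic chaperonin subunit, gave 4 of the 9, as both were positive on every array (Tcp1 at 0.19, 0.26, 0.19 and 0.13).

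Features of the same gene show how far a single ratio can be trusted. In the 5 members with a pair of complete features (Mrpl12, Mrpl20, Mrpl39, Mrpl58 and Mrps33) the features differed by a median of 0.18, 0.12, 0.02 and 0.05 in order of time, and by 0.29 at most. For the 868 genes of the series with such a pair the medians were 0.23, 0.17, 0.16 and 0.13. The Mrpl39 features agreed within 0.03 on every array. The Mrpl20 features had opposite signs on every array, by 0.26, 0.29, 0.02 and 0.25. Both Mrps33 features name the same transcript and differed by 0.04 to 0.18. The other members rested on 1 complete feature each. Incomplete features lay farther off in places. The second Mrpl24 feature differed from the complete one by 0.38, 0.22 and 0.25 at 2, 4 and 6 h. A second Mrpl1 feature, valued at 2 h alone, read -0.43, where the complete one read -0.07 (a difference of 0.36).

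7 members had a value on some arrays only. Mrpl10 read -0.06, 0.10 and 0.04 at 2, 4 and 6 h and Mrpl57 0.06, 0.10 and 0.19, while Mrps17 read 0.20, -0.09 and 0.0020 at 1, 2 and 6 h. Mrpl3 (1.07), Mrpl4 (1.17), Mrpl49 (0.40) and Mrps36 (-1.06) had a value at 1 h alone. The values of Mrpl3, Mrpl4 and Mrps36 were the ratios of any member farthest from 0. Mrpl10 and Mrpl57 entered the test of the later 3 arrays and did not pass (adjusted p = 0.778 and 0.218, limma), and the other 5 entered none of the 3 tests above. Of the 929 features seen on the 1 h array alone, members or not, 47.9% passed 0.5 in either direction, against 9.73% of the 7684 with 4 values, so large ratios were common in such features.

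From array to array the members ran more alike than genes in general where 1 h was concerned. The Pearson correlations of the 2, 4 and 6 h arrays with the 1 h array were 0.30, 0.44 and 0.48 over members, where all genes had -0.06, -0.08 and -0.08. Without Mrps24 and Mrps15, the members farthest from the median at 1 h, they were 0.23, 0.24 and 0.32 over 50 genes. Among the later arrays they were 0.65, 0.64 and 0.87, beside 0.63, 0.66 and 0.79 for all genes. Of the 52 members, 27, 28 and 32 had the sign of their 1 h ratio at 2, 4 and 6 h. No such sign count was made over all genes, so these counts do not bear on the comparison with genes in general. The correlations and sign counts are across genes of the same 4 arrays, which share dyes and platform, and are given as descriptions.

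The other genes of mitochondrial gene expression were sparsely measured. Of 6 symbols listed for further mitoribosomal proteins, 3 had 4 values, and their medians were -0.14, 0.02, 0.04 and -0.0059. The listed symbol Ict1 is an older name of Mrpl58, a member described above. Dap3 (-0.14, 0.02, 0.04 and -0.0059) and Ptcd3 (-0.26, 0.02, 0.15 and 0.08), small subunit proteins, were lowest at 1 h, and Chchd1 (0.06, -0.10, -0.20 and -0.08) highest. Translation factors had 3 of 15 genes with 4 values, among them Mrrf, the ribosome recycling factor (0.45, -0.04, 0.08 and 0.07), and Pdf, which removes the formyl group from new peptides (0.46, 0.07, 0.06 and 0.08). Both were highest at 1 h, and Mtfmt, which formylates the initiator tRNA, stayed between -0.04 and 0.01. None of these 6 genes was called over the later 3 arrays. Of the lists of ribosome assembly, tRNA synthetases, mitochondrial DNA and RNA, and import, the test over the later 3 arrays called 2 of 11, 0 of 4, 0 of 8 and 2 of 25 genes, all positive, where 11.8% of all genes were called. Those called were Eral1, which chaperones the small ribosomal RNA (-0.21, 0.36, 0.49 and 0.37; adjusted p = 0.0209, limma), Mrm2, Timm17b and Timm23. Timm23, the channel of the inner membrane translocase, had 0.27, 0.29, 0.20 and 0.23. The other genes with large means included Tfb2m, a mitochondrial transcription factor (-0.64, -0.08, -0.25 and -0.08), and Timm13, an import chaperone (-0.55, -0.15, -0.32 and -0.25), both negative on every array and not called. Mtg2 and Mterf3 of the assembly list averaged 0.18 and -0.15, with Mtg2 changing sign (0.61, -0.20, 0.42 and -0.09). Fars2, Hars2 and Cars2 of the synthetases averaged -0.07, 0.04 and -0.02. Mean ratios were 0.22 and 0.16 for Mgme1 and Hsd17b10, and -0.17 for Timm10b.

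Cytosolic ribosomal proteins, the counterpart in the cytosol, had medians of 0.13, 0.12, -0.02 and 0.05 over 37 genes, with 14 positive and 3 negative throughout. The oxidative phosphorylation list was drawn by symbol and includes Ndufaf assembly factors. Its medians were 0.05, 0.08, 0.02 and 0.11 over 55 genes, with 15 positive and 3 negative throughout. Shares positive throughout were 37.8%, 27.3% and 21.2% for cytosolic ribosomal, oxidative phosphorylation and mitochondrial ribosomal genes, and shares negative throughout 8.11%, 5.45% and 15.4%. Over the later 3 arrays 1 of 40 and 3 of 58 genes of the former lists were called (11.8% of all genes), all positive: Rpl29, and Atp5a1, Cox5b and Ndufaf3. The largest means were those of Rpl9 (0.28), Rpl29 (0.27) and Rpl41 (0.25), and of Cox5b (0.32), Ndufaf7 (0.29) and Ndufaf3 (0.29). Ndufaf7 (-0.40, 0.17, 0.92 and 0.48) and Ndufaf3 (-0.03, 0.49, 0.28 and 0.42) were negative at 1 h. The difference between the lists was not tested.

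**Figure D4:**
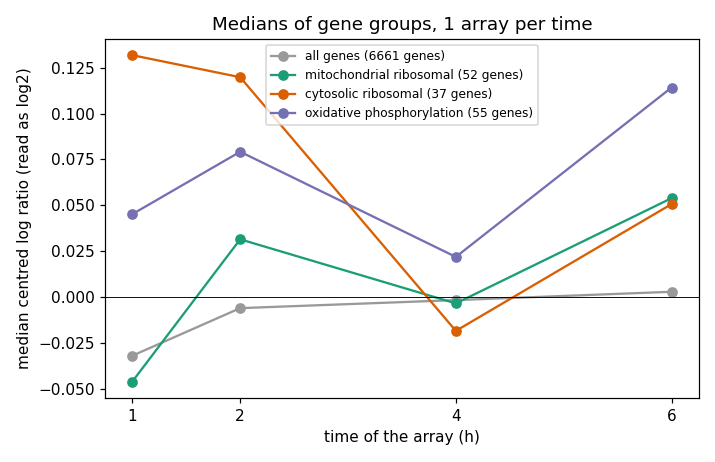
Median centred log ratio (read as log2, vertical axis) against the time of the array (h) for all genes, mitochondrial ribosomal, cytosolic ribosomal and oxidative phosphorylation genes. Each point is the median over the genes with 4 values on 1 array. The mitochondrial ribosomal medians run from -0.05 at 1 h to 0.05 at 6 h, and the cytosolic ribosomal median is 0.13 at 1 h.

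Markers of other cells are given for the same arrays, beside the 11.8% of all genes called over the later 3. Astrocyte markers had medians of -0.10, 0.05, 0.18 and 0.12 over 8 genes, with 3 called positive over the later 3 arrays. The 2 choroid plexus markers with 4 values, Ttr and Kl, had medians of -0.11, -1.16, -1.09 and -1.17, and both were called. At 1 and 6 h the medians were -0.03 and 0.31 over 7 microglial markers, -0.20 and 0.17 over 5 vessel markers, and -0.10 and 0.07 over 7 interneuron markers. Medians of 6 oligodendrocyte markers lay between -0.02 and 0.14, those of 3 pyramidal cell markers between -0.20 and -0.0020, and those of 2 granule cell markers between -0.39 and 0.25. The single blood marker with 4 values was positive throughout, between 0.09 and 0.49. Over the later 3 arrays 1 of 8 microglial markers was called, 1 positive and 1 negative of 5 vessel markers, 1 negative of 4 pyramidal cell markers, and none of the interneuron, oligodendrocyte, granule cell or blood markers. Their part in the ratios of the ribosomal genes was not tested.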

How the data were processed

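The samples were 4 two-colour arrays, 1 for each of 1, 2, 4 and 6 h. The deposited values are log ratios in 1 table for the series, read here as log2, and the sources used here give no base, direction, scanner or normalisation. The authors' non-zero values had medians of 0.00744, 0.00928, 0.0165 and 0.00525, so they were already centred near 0. Exact 0 (25.5%, 24.9%, 37.4% and 35.4% of 16281 features) was read as no value. Depth does not apply to arrays, and their number limits the precision.

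Symbols came from the platform annotation of GEO; all 62 member identifiers matched the GRCm38.p6 gene table with 0 symbols changed. Ratios were centred per array on the median of non-zero features, and complete features of a gene were averaged. Tests across all genes used limma 3.58.1 under R 4.3.3 (lmFit, eBayes). On simulated data with known shifts, the mean and slope fits on 4 arrays returned those shifts on average. This checked the code and not the calls, and the test of the later 3 arrays was not simulated. Named members were those past 0.5 on an array, the 5 highest and 5 lowest means, the calls or, in a test without calls, the 3 smallest unadjusted p in each direction, in each direction of constant sign the 5 whose smallest ratio was largest, those with features over 0.5 apart (none), and the Mrps18 paralogs; of each related list, the 3 largest absolute means. Mrpl46, Mrps11, Tcp1, Mrm2, Timm17b and the other members described, and the subunit classes, were added after their values were seen. Members and lists were chosen with earlier results of these data known. Alternatives covered centring, scaling, zeros, weights, features and single arrays. No protein sequences were used here.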

Additional observations from a re-analysis of the deposited data

Results flagged for a closer look

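In 11 of the 52 members with 4 values the 1 h ratio had one sign and every later ratio the other. The mean of the later 3 arrays minus the 1 h ratio was 0.477 for Mrpl33, 0.455 for Mrps31, 0.297 for Mrpl32, 0.250 for Mrpl40, 0.216 for Mrpl51, 0.211 for Mrpl38 and 0.179 for Mrps7. It was -0.420 for Mrpl35, -0.123 for Mrpl58, -0.108 for Mrps18b and -0.1065 for Mrpl13. The turn of Mrpl58 depends on the feature. One of its features read 0.17, -0.10, -0.19 and -0.02, and the other, without such a turn, -0.08, 0.01, -0.19 and 0.01. With 1 array per time these differences were not tested by themselves, and the slope test called none of the 11 genes. Such a turn occurred in 32.2% of all genes with 4 values. A search for samples far from their group was not possible, since each time is 1 array.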

How the results depend on the processing

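The slope test called 0 members and 0 genes under all alternatives run. For the 4-array mean, array weights gave 10 of 52 members and 1793 genes; quantile normalisation gave 11 genes and values on all arrays but 1 gave 14, with 0 members each. Leaving out single arrays gave 0 to 4 members and 0 to 828 genes. The upper ends came without 1 h, which is the test of the later 3 arrays itself and not a separate check. For the later 3 arrays, array weights gave 8 members and 1881 genes, exact 0 as a value 0 and 1, and single features 2 members. Without 1 array these ran from 0 members and 101 genes (without 6 h) to 3 and 918 (without 2 h), with 1 member and 136 genes without 4 h. Members past 0.5 at 1 h numbered 1 with equal spread, 6 with every feature or with exact 0 as a value, 8 at a threshold of 0.3 and 5 under natural logarithms. At 2 and 4 h a threshold of 0.3 gave 3 and 4, natural logarithms gave 3 at 4 h, and a threshold of 1 gave 0 at each time. The 1 h median became -0.00314 with every feature, -0.0115 when centred on complete features (chosen after seeing the data) and 0 with exact 0 as a value, which also gave 0.00881 at 2 h and 0.0251 at 6 h. Members positive throughout numbered 12 to 18 without single arrays, the latter without 1 h. For the same genes, fewer arrays can only keep or raise this count. The Mrpl35 slope ran from -0.2023 without 6 h to 0.07001 without 1 h. For single named genes 250 other checks kept direction and side of the threshold, 18 lost a call and 13 gained one. The gains without 1 h repeat the calls of the later 3 arrays. The cause of these changes was not tested. No paired analysis was possible because each time has 1 array.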
